A study of Mus musculus with 24 samples.

Results

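The 4 mature miRNAs examined here come from the paired hairpins of miR-221 and miR-222, and were taken by name (mmu-miR-221-3p, mmu-miR-221-5p, mmu-miR-222-3p and mmu-miR-222-5p) from 1950 mature miRNAs listed in at least 1 of 3 deposited tables of mouse lung small RNA sequencing. C57BL/6 mice, an inbred laboratory strain aged 6 to 8 weeks at entry, received 15 Gy of X-rays to the whole thorax (group label Radiation) or no irradiation (group label Control), and lungs were taken at day 14, day 90 and day 180. There were 6 groups of 4 libraries, 24 libraries together. Whether each library is a separate animal is not stated in the labels, so p-values measure the spread between these libraries, which may be technical.

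miRNAs are short RNAs that guide Argonaute proteins to messenger RNAs, mostly through pairing of the seed, bases 2 to 8 from the 5′ end. miR-221 and miR-222 are processed from one primary transcript and their 3p arms share a seed. In human cells both are known to repress the cell-cycle inhibitor p27 (Cdkn1b in mouse) and the receptor Kit, in endothelial cells and erythroid precursors among others. They also promote proliferation of vascular smooth muscle cells in the rat, and in human cells their transcription responds to NF-kB and AP-1. The tables hold miRNAs, so these targets were not measured.

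The sequences are shown because the seed is what the pair has in common and the arms are what was counted. In the mature sequences (RefSeq, GRCm38.p6, 3 of the 4 members matched) capitals mark the seed.
miR-221-3p: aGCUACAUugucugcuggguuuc
miR-222-3p: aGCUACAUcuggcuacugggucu
miR-221-5p: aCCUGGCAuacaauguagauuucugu
The 3p arms are both 23 bases long, share their first 8 bases, and are identical at 11 of 23 positions when laid side by side without gaps, so reads of one can be told from reads of the other. The 5p arm of miR-221 has another seed, which no other of the 1679 mature miRNAs in the RefSeq table carries. The seed of the 3p arms is carried by 3 of them, the third being miR-1928 on chromosome 1, which is listed in none of the deposited tables.
miR-1928: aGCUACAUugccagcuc

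In the hairpins, written 5′ to 3′ on the minus strand, capitals mark the mature arms listed above.
Mir221: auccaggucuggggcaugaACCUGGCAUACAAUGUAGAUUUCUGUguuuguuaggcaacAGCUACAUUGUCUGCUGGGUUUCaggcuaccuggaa
Mir222: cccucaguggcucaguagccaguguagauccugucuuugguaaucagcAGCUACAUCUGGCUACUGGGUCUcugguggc
Mir221 lies at chrX:19146294-19146388 and Mir222 at chrX:19146893-19146971 (GRCm38), with 504 bases between them. In the GENCODE M21 annotation 0 other genes overlap this stretch, so the hairpins are in neither an exon nor an intron of another annotated gene. The nearest annotated gene upstream is the non-coding transcript Gm14636, on the same strand and 10009 bases away.

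Total counts were 2832205 to 3695133 per library, and the 10 most abundant miRNAs took 27% to 35.2% of them. At day 180, irradiated library 1 had the lowest total and stood apart. Its Spearman correlations with other libraries of that day had a median of 0.914, against medians of 0.94 to 0.962 for the rest. Irradiated library 4 had the next lowest median, 0.94. At day 180 the fold changes of the members, several of their levels and the medians of the lists are given with and without it. Levels without it are on the same scaling and fold changes from a new fit. Levels of other miRNAs and shares over all miRNAs at day 180 include it. Lung-cell markers were abundant in every library, the endothelial miR-126a arms summing to between 35794 and 57787 CPM. Levels below are in CPM, the count relative to the library total on the usual scale, with TMM factors that align libraries on the bulk of their miRNAs within each day. They compare reads of miRNAs of much the same length, and are not corrected for differences in cloning between miRNAs.

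miR-222-3p was the most abundant of the 4 members in all 24 libraries. It ranked 69th of 499, 70th of 558 and 73rd of 552 miRNAs that passed the filter on low counts at day 14, 90 and 180. miR-221-3p ranked 114th, 115th and 122nd, and miR-221-5p 250th, 250th and 240th. At day 14 miR-222-3p lay between the epithelial miR-141-3p (2349 CPM) and miR-872-5p (2214 CPM), with 2338 CPM over all 8 libraries. miR-221-3p lay between the erythroid miR-486a-5p (655 CPM) and miR-351-5p (644 CPM), with 652 CPM. The neighbours of miR-222-3p were miR-140-5p and miR-872-5p at day 90 and miR-24-2-5p and miR-92b-3p at day 180. Those of miR-221-3p were miR-425-5p and miR-3068-5p at day 90 and miR-130a-3p and miR-379-5p at day 180. miR-222-5p reached at most 12 counts in a library and did not pass the filter at any day, so 3 of the 4 members were tested.

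**Figure D1:**
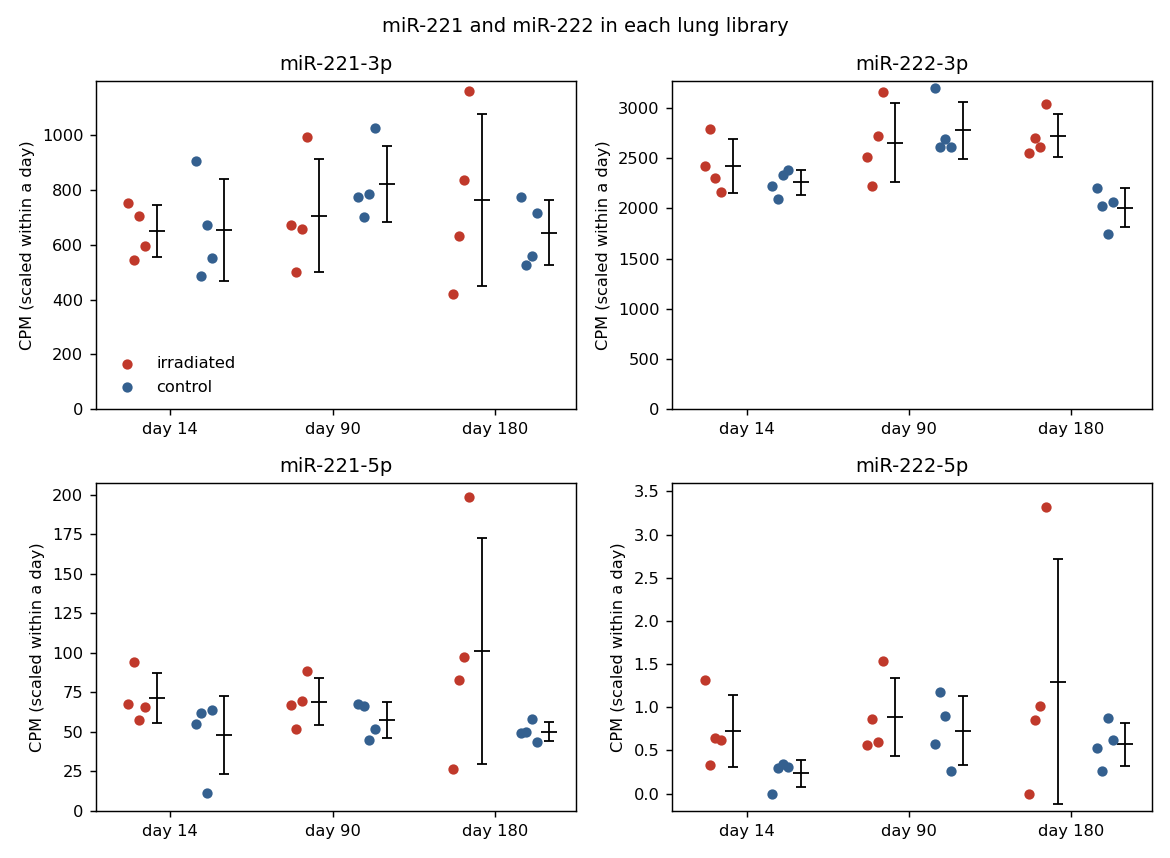
CPM, scaled within a day, of each member in each of the 24 libraries (red irradiated, blue control; points are libraries, black bars the mean and SD, n = 4). miR-222-3p at day 180 is the only panel and day in which the groups do not overlap, while the irradiated libraries of day 180 spread from 26.4 to 198 CPM for miR-221-5p.

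At day 14 irradiated and control lungs overlapped for all 4 members, and none of the 3 members tested passed. The comparison asked whether the members differ early after irradiation. miR-222-3p, the main product of its hairpin, had 2423, 2788, 2300.3 and 2163 CPM in irradiated libraries 1 to 4, against 2221, 2093, 2336 and 2382 CPM in control libraries 1 to 4. The groups overlapped, with irradiated libraries 1 and 2 above all controls. The log2 fold change was 0.099 ± 0.11 (SE; 95% interval -0.15 to 0.35) with an edgeR quasi-likelihood adjusted p of 0.919. In bulk tissue, fewer cells of a type and less RNA per cell cannot be told apart.

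miR-221-3p had 754, 546, 706 and 596 CPM in irradiated lungs and 906, 485, 673 and 551 CPM in control lungs at day 14. The highest and the lowest value were both in controls, and the groups overlapped. Its log2 fold change was -0.0074 ± 0.21 (edgeR adjusted p = 0.991; 95% interval -0.50 to 0.48), and its sign turned when irradiated library 2 or 4 or control library 1 or 3 was left out, with values of 0.078, 0.058, 0.21 and 0.016. miR-221-5p, the less abundant strand of the hairpin, had 67.8, 94.5, 57.7 and 65.5 CPM in irradiated lungs and 55.3, 61.9, 11.6 and 64 CPM in control lungs. Control library 3 was far below the other 7, with 34 counts against 178 to 289, while its miR-221-3p was within the range of the other controls. The log2 fold change of miR-221-5p was 0.56 ± 0.46 (edgeR adjusted p = 0.919; 95% interval -0.48 to 1.61), and 0.25 without control library 3. miR-222-5p had 4, 1, 2 and 2 counts in irradiated and 0, 1, 1 and 1 counts in control libraries.

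At this day 0% of 499 miRNAs passed with edgeR (0 called, 27 at an unadjusted p under 0.05, and 1 called by DESeq2). In 2.4% the groups did not overlap (0.802% with irradiated lungs higher), and none of the 4 members was among these. The labels do not say whether the replicate numbers pair the libraries. At this day same-numbered libraries deviated together (correlations 0.162 to 0.463), against -0.44 to 0.29 between other numbers. With the replicate number as a block the log2 fold change of miR-221-3p was 0.022, that of miR-222-3p 0.094 and that of miR-221-5p 0.76 (edgeR adjusted p = 0.967, 0.908 and 0.743). miR-221-5p was higher in the irradiated library of 4 of 4 same-numbered pairs. The exact permutation p within these pairs was 0.125, the smallest that 4 pairs allow.

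At day 90 the 3p arms stood slightly lower on average in irradiated lungs and the 5p arm of miR-221 slightly higher, and none of these differences passed. miR-222-3p had 2515, 2223, 2722 and 3155 CPM in irradiated libraries, against 3196, 2616, 2687 and 2611 CPM in control libraries. Irradiated libraries 1 and 2 were below all controls, and library 4 lay among the highest values. The log2 fold change was -0.066 ± 0.14 (edgeR adjusted p = 0.93; 95% interval -0.38 to 0.25). miR-221-3p had 673, 502, 657 and 993 CPM in irradiated lungs and 774, 702, 787 and 1025 CPM in control lungs. In 3 irradiated libraries it was below all controls, and the fourth was above 3 of the 4 controls. Its log2 fold change was -0.22 ± 0.23 (edgeR adjusted p = 0.769; 95% interval -0.72 to 0.29). It was -0.45 without irradiated library 4, and -0.12 without irradiated library 2 and without control library 4.

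miR-221-5p at day 90 had 66.8, 51.9, 69.3 and 88.6 CPM in irradiated lungs and 67.4, 66.2, 44.7 and 51.9 CPM in control lungs, with overlapping groups. Its log2 fold change was 0.27 ± 0.22 (adjusted p = 0.696 with edgeR; 95% interval -0.23 to 0.76), and 0.10 without irradiated library 4 or 0.15 without control library 3. miR-222-5p had 2, 3, 2 and 6 counts in irradiated and 2, 4, 3 and 1 counts in control libraries. edgeR called 0.358% of 558 miRNAs at this day, and the groups did not overlap in 7.17% (4.84% with irradiated lungs higher), with no member in either set.

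At day 180, miR-222-3p averaged 2724 ± 216 CPM (SD, n = 4) in irradiated lungs, against 2006 ± 192 CPM (n = 4) in the controls, a fold of 1.36, and did not pass over all miRNAs tested. This comparison asked whether the members differ late after irradiation. The irradiated libraries held 2553, 2699.5, 2608 and 3035 CPM, against 2199, 2026, 1741 and 2060.2 CPM in the controls. All 4 irradiated libraries were above all 4 controls. The log2 fold change was 0.44 ± 0.17 (95% interval 0.058 to 0.82), with an unadjusted p of 0.0281, an edgeR adjusted p of 0.259 and an exact two-sided permutation p of 0.0286, the smallest that 4 against 4 libraries allow. Among all 552 miRNAs tested at this day the irradiated libraries were above the controls without overlap in 5.43%, and the groups did not overlap in 12%. edgeR called 0% of them (0 called, 101 at an unadjusted p under 0.05), and DESeq2 called 26.

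The separation of miR-222-3p depended on the scaling. In the RPM values deposited by the authors, which divide counts by a larger total per library, the irradiated libraries stood at 469.9, 624, 669 and 743 RPM and the controls at 514, 485, 396 and 459 RPM. On that scale irradiated library 1 lay below control libraries 1 and 2, so the groups overlapped. The median log2 fold change of all miRNAs tested at day 180 was 0.13 with TMM, and the value for miR-222-3p is to be read relative to it. Without irradiated library 1 the log2 fold change of miR-222-3p was 0.46 (edgeR adjusted p = 0.0914), and the median of all miRNAs was 0.0007.

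**Figure D2:**
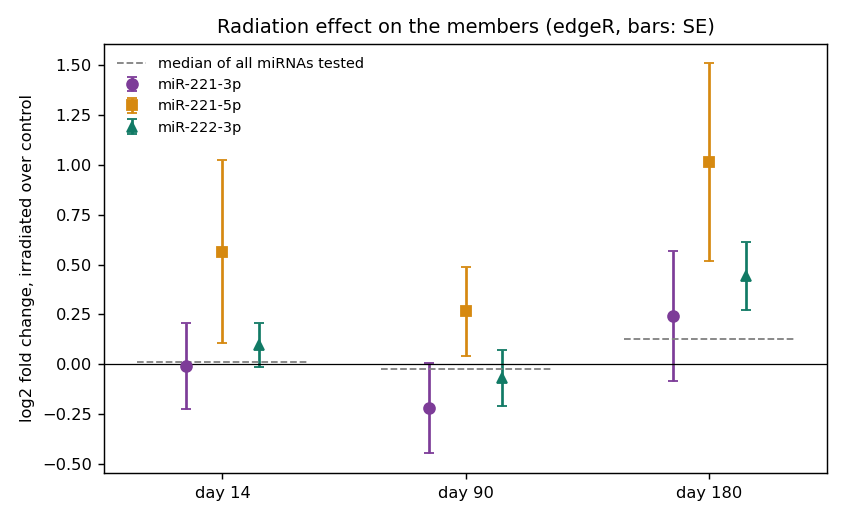
Log2 fold change of irradiated over control lungs, on TMM-scaled counts, for the 3 members tested at each day (edgeR; bars are SE, dashed lines the median of all miRNAs tested that day). The estimates for miR-221-5p were 0.56, 0.27 and 1.01 at day 14, 90 and 180, those for miR-222-3p 0.099, -0.066 and 0.44, and none passed the adjusted threshold of 0.05.

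The products of the miR-221 hairpin varied widely among irradiated libraries at day 180. miR-221-5p had 26.4, 82.8, 97.2 and 198 CPM in irradiated libraries 1 to 4, against 49.2, 50.2, 58.3 and 43.3 CPM in the controls. Irradiated library 1 was below all controls and the other 3 above all of them. The coefficient of variation was 70.8% in irradiated and 12.2% in control lungs. The log2 fold change was 1.01 ± 0.49 (edgeR adjusted p = 0.317; 95% interval -0.096 to 2.12), or 1.31 without irradiated library 1 (adjusted p = 0.0554), and 0.46 without irradiated library 4 (adjusted p = 0.562).

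miR-221-3p at day 180 had 421, 632, 837 and 1161 CPM in irradiated lungs and 773, 527, 560.1 and 718 CPM in control lungs. Library 1 was below and libraries 3 and 4 above all controls. Its log2 fold change was 0.24 ± 0.33 (edgeR adjusted p = 0.712; 95% interval -0.49 to 0.97), 0.43 without irradiated library 1 (adjusted p = 0.284) and -0.023 without irradiated library 4. miR-222-5p had 0, 3, 4 and 12 counts in irradiated and 2, 1, 3 and 2 counts in control libraries. A count of 0 in irradiated library 1 allows up to 3 counts. With scaling within the day, all 4 members were thus lowest in irradiated library 1 and highest in irradiated library 4 within that group. With the 24 libraries scaled together miR-222-3p was instead lowest in library 3, at 2455 CPM, against 2467 CPM in library 1. Irradiated libraries 1 and 4 had the lowest median correlations of the day. How many of all miRNAs were likewise lowest in library 1 and highest in library 4 was not counted.

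Other cell-type miRNAs also differed between these 2 libraries, and their part in the result was not tested. The 4 epithelial markers of the miR-200 family summed to 42462 CPM in irradiated library 1 and 19719 CPM in irradiated library 4, against 27879 to 29534 CPM in controls. The 2 erythroid markers summed to 37294 and 21259 CPM in the same libraries, against 26328 to 32618 CPM in controls. The 5 striated muscle markers summed to 1747 and 413 CPM, against 601 to 3169 CPM in controls. The smooth muscle markers miR-143-3p and miR-145a-5p summed to 40907 and 29930 CPM, against 31729 to 40035 CPM in controls. The 3 leukocyte markers summed to 6459 and 5642 CPM, against 4255 to 5109 CPM in controls, and the 2 endothelial markers to 57787 and 43140.4 CPM, against 41619 to 46415 CPM in controls. The lymphocyte marker ran from 14149 to 18820 CPM in irradiated libraries and from 15662 to 22146 CPM in controls. The hepatocyte marker ran from 458 to 909 CPM in irradiated libraries and from 562 to 860 CPM in controls. In 2 marker lists the sums of the groups did not overlap at day 180. Among single miRNAs tested at that day the groups did not overlap in 12%. The stratified epithelium markers miR-205-5p and miR-203-3p summed to 582 to 790.4 CPM in irradiated libraries and 818 to 891 CPM in controls. The neural markers miR-124-3p and miR-9-5p summed to 52.8 to 149.8 CPM in irradiated libraries and 29.4 to 48.9 CPM in controls. No marker of these lists was at 0 in all libraries of the day.

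Set side by side over the 3 days, with 1 scaling of all 24 libraries on the 1477 miRNAs shared by the tables, miR-222-3p in control lungs of day 180 was the lowest of the 6 groups. Its mean was 2697 ± 351 CPM in irradiated lungs and 2521 ± 199 CPM in controls at day 14. At day 90 irradiated lungs had 2506 ± 359 CPM and control lungs 2619.6 ± 275 CPM. For day 180 the means were 2569.6 ± 145 CPM in irradiated lungs and 1918 ± 193 CPM in controls, or 2604 ± 157 CPM (n = 3) in irradiated lungs without library 1. The order from high to low was irradiated day 14, control day 90, irradiated day 180, control day 14, irradiated day 90 and control day 180. The ranges of the first 5 overlapped. The 4 controls of day 180 lay between 1659.9 and 2126 CPM, and of the other 20 libraries 1 lay below the highest of them, at 2123 CPM.

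**Figure D3:**
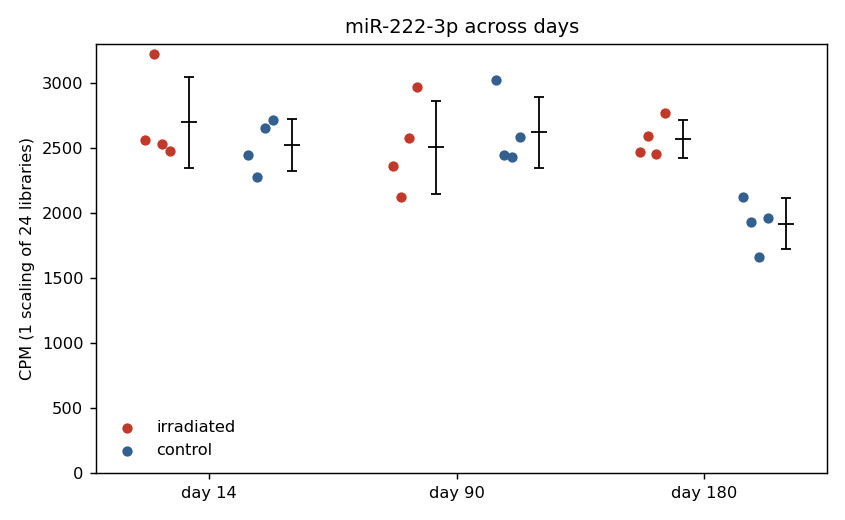
CPM of miR-222-3p in each library with all 24 libraries scaled together (red irradiated, blue control; black bars are mean and SD, n = 4). The controls of day 180 averaged 1918 CPM, below the means of the other 5 groups, which lay between 2506 and 2697 CPM.

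On the same scale the 6 groups of miR-221-3p had means of 616 to 778 CPM, and the ranges of all 6 overlapped. For miR-221-5p the order from high to low was irradiated day 180 (94.3 ± 64.4 CPM), irradiated day 14 (79.8 ± 20.2 CPM), irradiated day 90 (65.3 ± 13.9 CPM), control day 90 (54.3 ± 10.7 CPM), control day 14 (53.6 ± 27.4 CPM) and control day 180 (48 ± 5.88 CPM; SD, n = 4 each). The ranges of neighbours in this order overlapped. Control library 3 of day 14 lowers its group in it: without that library the control mean of day 14 was 67 ± 5.97 CPM (n = 3), above irradiated day 90. The irradiated mean of day 180 was 117.3 ± 55.4 CPM (n = 3) without irradiated library 1.

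Among controls alone, miR-222-3p was lower at day 180 than at day 14 by a log2 difference of -0.38 ± 0.11 (edgeR adjusted p = 0.0602) and lower than at day 90 by -0.44 ± 0.11 (adjusted p = 0.108), and neither passed. Of 564 miRNAs, 8.69% passed between day 180 and day 14, 3.55% between day 90 and day 14, and 0% between day 180 and day 90 (0 called, 99 at an unadjusted p under 0.05). The 3 tables were deposited separately, so time after the start, age of the animals and table cannot be told apart in these values. miR-221-3p and miR-221-5p did not pass in controls in any of the 3 comparisons, with log2 differences of -0.33 to 0.10 for the 3p arm and -0.17 to 0.019 for the 5p arm.

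The difference of the radiation effect between days was tested in 1 fit of 24 libraries. For miR-222-3p the effect at day 180 minus that at day 90 was 0.49 ± 0.19 on the log2 scale (95% interval 0.10 to 0.87, unadjusted p = 0.0167, edgeR adjusted p = 0.273). Day 180 minus day 14 gave 0.32 ± 0.19 (adjusted p = 0.494). For miR-221-5p these differences were 0.71 ± 0.62 and 0.40 ± 0.62, and for miR-221-3p 0.44 ± 0.37 and 0.23 ± 0.37. Without irradiated library 1 of day 180 they were 0.50 and 0.34 for miR-222-3p, 1.02 and 0.71 for miR-221-5p, and 0.63 and 0.42 for miR-221-3p, with edgeR adjusted p-values of 0.171 to 0.622 and 10 and 2 miRNAs called, none of them a member. None passed, and edgeR called 0% of 624 miRNAs in each of the 3 comparisons of days, with 28 (day 90 minus 14), 71 (day 180 minus 14) and 91 (day 180 minus 90) at an unadjusted p under 0.05. DESeq2 called 0, 2 and 2. With each library left out in turn, day 180 minus day 90 ran from 0.27 to 1.02 for miR-221-5p. It ran from 0.27 to 0.64 for miR-221-3p and from 0.43 to 0.61 for miR-222-3p. Day 180 minus day 14 ran from -0.094 to 0.80 for miR-221-5p and from -0.0076 to 0.44 for miR-221-3p. For miR-222-3p the latter ran from 0.32 to 0.46.

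Ratios of counts within a library do not depend on the scaling. miR-222-3p outnumbered miR-221-3p in every library, on average 3.72 times at day 14, 3.66 times at day 90 and 3.59 times at day 180. miR-221-3p made up 21.3% ± 3.42 of the counts of both 3p arms in irradiated lungs and 22.2% ± 4.8 in control lungs at day 14 (SD, n = 4 each). For day 90 the shares were 20.7% ± 2.41 in irradiated and 22.9% ± 3.77 in control lungs, and for day 180 they were 21.3% ± 5.94 in irradiated and 24.2% ± 2.49 in control lungs. Within the irradiated libraries of day 180 the share was 14.2% in library 1 and 27.7% in library 4, the lowest and the highest of that group, and without library 1 the mean was 23.6% ± 4.39 (n = 3). Exact two-sided permutation p-values were 0.8, 0.371 and 0.371, and 0.9, 0.551 and 0.551 after Benjamini-Hochberg adjustment over 9 ratio tests.

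The arms of the hairpins were used unequally. For miR-222, the 5p arm took at most 0.109% of the counts of the hairpin in any library, with exact permutation p-values of 0.114, 0.429 and 1 between the groups at day 14, 90 and 180. For miR-221 it took 10.1% ± 3.25 in irradiated and 7.29% ± 4.46 in control lungs at day 14. For day 90 this was 9.04% ± 0.6 in irradiated and 6.71% ± 1.89 in control lungs, and for day 180 it was 10.6% ± 3.61 in irradiated and 7.45% ± 1.89 in control lungs (SD, n = 4 per group), or 12.2% ± 2.16 (n = 3) in irradiated lungs of day 180 without library 1. The mean 5p share was higher in irradiated lungs at each day, and the groups of 4 overlapped at each. At day 90 the irradiated libraries stood at 9.03%, 9.38%, 9.54% and 8.19%, against 8.02%, 8.62%, 5.38% and 4.82% in the controls, with irradiated library 4 the only one below a control. The exact permutation p was 0.371, 0.0571 and 0.171 at the 3 days, and 0.551, 0.514 and 0.514 after adjustment over the 9 tests. At day 14 the control mean includes library 3 at 1.7%. The log2 difference of the 5p to 3p ratio at day 14 was 0.79, and 0.17 without that library. At day 180 it was 0.52, and 0.81 without irradiated library 1 (exact permutation p = 0.0571) or 0.33 without irradiated library 4.

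**Figure D4:**
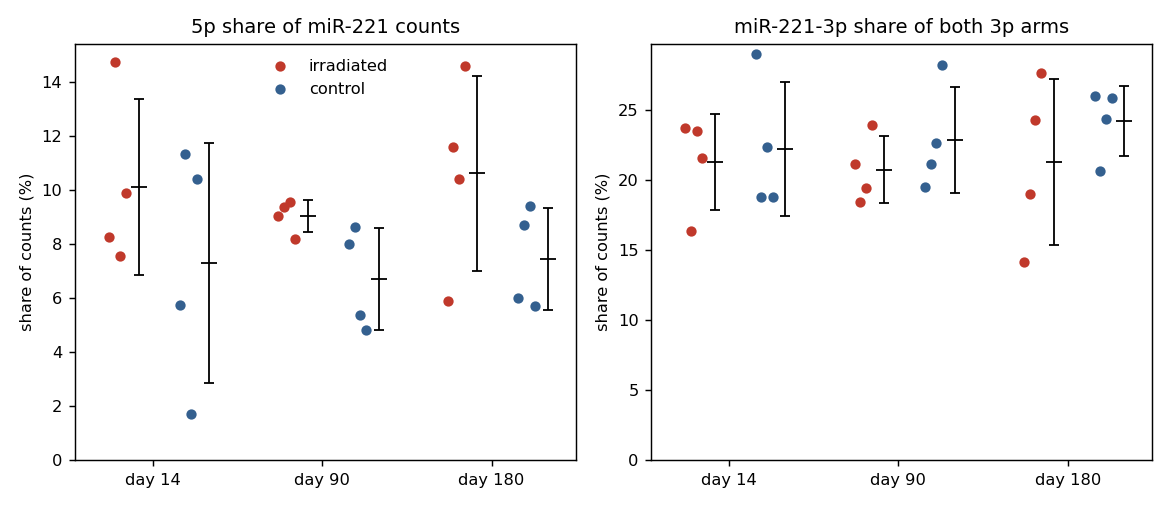
Share of counts in percent, by library, of the 5p arm among miR-221 counts (left) and of miR-221-3p among the counts of both 3p arms (right); red irradiated, blue control, black bars mean and SD (n = 4). The 5p share at day 90 was 8.19% to 9.54% in irradiated and 4.82% to 8.62% in control lungs, and the right panel shows overlapping groups at each day.

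Summed over the arms that share the seed, miR-221-3p and miR-222-3p stood at 3069 ± 246 CPM in irradiated lungs and 2912 ± 236 CPM in controls at day 14. Day 90 gave 3359.8 ± 593 CPM in irradiated lungs and 3599 ± 279 CPM in controls, and day 180 gave 3487 ± 514 CPM in irradiated lungs and 2651 ± 289 CPM in controls. At day 180 the sums ran from 2974 to 4196 CPM in irradiated and from 2301 to 2972 CPM in control libraries. The lowest irradiated sum without irradiated library 1 was 3331 CPM. The narrow separation of the sums depended on the scaling. In the deposited RPM, irradiated library 1 had 469.9 (miR-222-3p) and 77.6 (miR-221-3p). Control library 1 had more of both, at 514 and 181 RPM, so on that scale the sums of the groups overlapped.

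Across the 24 libraries, with each library set relative to the mean of its group, miR-221-3p and miR-222-3p had a Spearman rho of 0.39 (Pearson r = 0.39). That placed miR-222-3p 69th of 623 miRNAs by likeness to miR-221-3p, and miR-221-3p 30th by likeness to miR-222-3p. The median rho over all miRNAs was 0.016 for miR-221-3p and 0.025 for miR-222-3p. The arms of miR-221 had a rho of 0.13 (r = 0.37), and miR-222-3p with miR-221-5p one of 0.34 (r = 0.22). These are descriptions of libraries that share depth and scaling. The 5 miRNAs most like miR-221-3p were miR-511-5p (rho 0.74), miR-337-5p (0.73), miR-20b-5p (0.72), miR-27b-3p (0.69) and miR-130b-3p (0.67). The 5 most like miR-222-3p were miR-191-3p (0.66), miR-1668 (0.61), miR-6958-3p (0.61), miR-342-5p (0.59) and miR-543-5p (0.59). Both lists hold the highest of 623 values of rho. Some of their miRNAs were scarce: group means of miR-511-5p, miR-130b-3p, miR-1668, miR-6958-3p and miR-543-5p were at most 9.07 CPM where tested. Within single days, miR-511-5p and miR-543-5p passed the filter at day 180 only. The list for miR-221-5p, outside the rule for named miRNAs and looked at after its values were seen, was led by miR-212-3p (rho 0.75), a CREB-regulated miRNA. Over 23 libraries, without irradiated library 1 of day 180, miR-221-3p and miR-222-3p had a rho of 0.41 and the arms of miR-221 one of 0.063. In the list of miR-221-3p, miR-27b-3p then had a rho of 0.47 (28th), and the other 4 between 0.63 and 0.70. In that of miR-222-3p the 5 lay between 0.58 and 0.74, and miR-212-3p had 0.71 with miR-221-5p.

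miR-212-3p belongs to the miRNAs known to respond to NF-kB, AP-1 or CREB, a list of 7 set beside the pair. Like the other lists, it was chosen with earlier results of these data known. Its medians and counts beside those of all miRNAs are therefore descriptions, not tests. At day 180, 6 of the 7 had log2 fold changes above 0, with a median of 1.04 against 0.13 for all miRNAs tested. None of the 7 was called by edgeR in either direction, against 0% of all miRNAs tested at that day. The median was 1.35 without irradiated library 1, with 6 of 7 above 0 and none called. Of the 7, 2 were higher in irradiated lungs without overlap, against 5.43% of all miRNAs in that direction. miR-21a-5p, the most abundant, averaged 25138 ± 2963 CPM in the irradiated libraries, against 18553 ± 1219.6 CPM in controls (edgeR adjusted p = 0.171), and miR-155-5p, a miRNA of activated immune cells, 1039 ± 676 CPM in irradiated and 455 ± 94.2 CPM in control libraries (adjusted p = 0.259). miR-146a-5p, induced by NF-kB, averaged 10705 ± 1672 CPM in irradiated libraries and 11692 ± 1301 CPM in controls (adjusted p = 0.691), and its relative miR-146b-5p 4189.8 ± 2194 CPM in irradiated libraries and 2181 ± 415 CPM in controls (adjusted p = 0.259).

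The CREB-regulated miR-132-3p and miR-212-3p of that list are named after their values were seen. Among the irradiated libraries of day 180, miR-212-3p had 3.71, 37.3, 76.7 and 134 CPM in libraries 1 to 4, and miR-132-3p 2.89, 15.8, 36.4 and 46.4 CPM. Like the miR-221 arms they were lowest in library 1 and highest in library 4, an order not counted over all miRNAs. So was miR-146b-5p, with 2292, 2402, 5381 and 6684 CPM in libraries 1 to 4. miR-21a-5p, miR-147-3p and miR-155-5p were also highest in library 4, but lowest in library 2. miR-146a-5p was lowest in library 4, at 8349.7 CPM. At day 14 and day 90 the list had medians of -0.0064 and 0.062, with 3 of 6 and 4 of 7 members above 0. None was called, against 0% and 0.358% of all miRNAs. At day 14 miR-146b-5p was lower without overlap, with 1640.4 ± 107 CPM in irradiated lungs and 1951 ± 164 CPM in controls (edgeR adjusted p = 0.883). The groups did not overlap in 2.4% of all miRNAs at day 14, counting both directions.

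**Figure D5:**
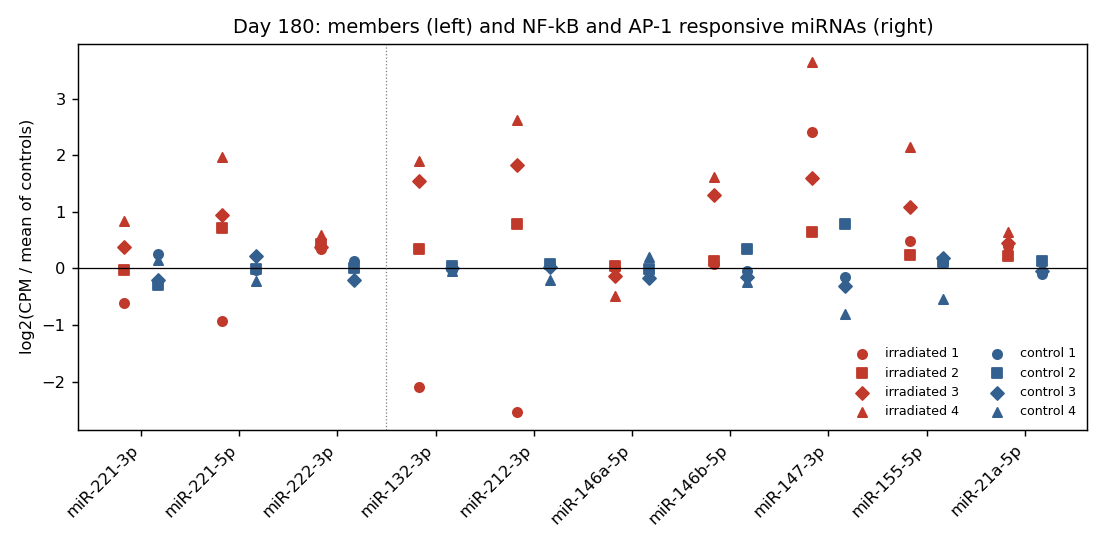
Day 180: log2 of CPM over the mean of the controls for the 3 members tested (left of the dotted line) and 7 miRNAs responsive to NF-kB, AP-1 or CREB (right), by library (red irradiated, blue control; the symbol gives the replicate number). Irradiated library 1 (circle) is below all controls for miR-221-3p, miR-221-5p, miR-132-3p and miR-212-3p, and above all controls for miR-222-3p, miR-147-3p, miR-155-5p and miR-21a-5p.

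Lists of the cell types and targets tied to the pair held no called member at any day. Over all miRNAs tested edgeR called 0%, 0.358% and 0% at day 14, 90 and 180, so few calls were to be had. The smooth muscle list had medians of 0.077, 0.061 and -0.059 over 4 members at day 14, 90 and 180. At day 180 its miR-145a-5p had 3512 ± 861 CPM in irradiated lungs, all below the controls with 6360.5 ± 1898 CPM (edgeR adjusted p = 0.224). The groups did not overlap in 12% of all miRNAs at that day, counting both directions. miR-143-3p had 29698 ± 5953 CPM in irradiated lungs and 28454 ± 2238 CPM in controls. The endothelial miR-126a arms had medians of 0.084, 0.15 and -0.0092. At day 180 miR-126a-3p had 34483 ± 8306 CPM in irradiated lungs and 31965 ± 2411 CPM in controls. The erythroid list had medians of 0.38, 0.19 and -0.46 over 4 members. At day 90, 2 of the 4 were above 0 and 2 below. The most abundant, miR-451a, had 27461 ± 1904 CPM in irradiated lungs and 28136 ± 2705 CPM in controls at that day (edgeR adjusted p = 0.944). miR-144-3p had 3074 ± 1528 CPM in irradiated lungs and 1092 ± 507 CPM in controls (adjusted p = 0.156), and was the only one of the 4 without overlap, against 4.84% of all miRNAs in that direction. At day 180 miR-451a had 25163 ± 7519 CPM in irradiated lungs and 27230.3 ± 3115 CPM in controls (adjusted p = 0.778), and miR-144-3p 1264 ± 611 CPM in irradiated lungs and 2262 ± 607 CPM in controls (adjusted p = 0.259). For 5 tested of 6 miRNAs reported to target Kit or Cdkn1b the medians were 0.055, 0.0998 and -0.22. Of these miR-24-3p was the most abundant, with 20112 ± 4724 CPM in irradiated lungs and 23381 ± 3801 CPM in controls at day 180. Without irradiated library 1 the medians of day 180 were -0.40 for smooth muscle, -0.12 for endothelial, -0.93 for erythroid and -0.11 for the Kit or Cdkn1b list, with none called.

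Other miRNAs of the X chromosome had medians of -0.13, -0.19 and 0.052 at day 14, 90 and 180, over 42, 46 and 46 miRNAs tested. Of these 12, 15 and 25 were above 0 and none was called, against 0%, 0.358% and 0% of all miRNAs. The median of day 180 was 0.14 over 48 miRNAs without irradiated library 1. The medians of all miRNAs tested were 0.012, -0.022 and 0.13.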

How the data were processed

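Small RNA of 24 lung libraries was sequenced. The authors deposited whole-number counts per mature miRNA, not normalised, and RPM values that scale these counts to a total of 11984014 to 16081435 per library, per the file headers and the values. Per the submitters' processing notes, which give no roles, Bowtie2 and GRCm38.p6 were used. Molecular identifiers are not mentioned in the labels, so reads are not taken as separate molecules and binomial intervals would cover counting error only.

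Each day was tested alone with edgeR 4.0.16 (filterByExpr, TMM, quasi-likelihood F-test, Benjamini-Hochberg over all miRNAs tested, threshold 0.05; R 4.3.3, limma 3.58.1, DESeq2 1.42.0). Effect differences between days and controls between days used joint fits. Ratio tests are exact two-sided permutation tests with 0.5 added to counts. Same-numbered libraries deviated together at day 14 (correlations 0.162 to 0.463), not at day 90 or 180. Chi-square per degree of freedom between the closest libraries was at least 25.9 at each day, so no library was taken as a copy of another. Named miRNAs are the members, those most like the 3p arms, their neighbours in level, seed relatives and the most abundant of each list (up to 4), with miR-132-3p, miR-212-3p and the 4 markers of stratified epithelium and neural cells named after their values were seen. Members and lists were chosen with earlier results of these data known. Alternatives were RLE size factors, no filter, DESeq2, the block, 1 fit of all libraries, leaving out the 10 most abundant miRNAs, other pseudocounts, each library left out and, chosen after seeing the data, limma on log2 of the deposited RPM + 0.1 and the lists, levels and likeness without a library that stood apart.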

Additional observations from a re-analysis of the deposited data

Results flagged for a closer look

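The levels and count ratios of the members within the 6 groups gave 42 sets of 4 values. Of these, 4 held a library far from the other 3 by Dixon's criterion. Chance gives this in about 1 of 20 independent sets, but these sets share libraries and counts. The lowest miR-221-5p in day 14 controls was 11.6 CPM in library 3, against 55.3 to 64 CPM in the other 3 controls. In the same group miR-222-5p was at 0 CPM in library 1, from 0 counts against 1 in each of the others, and the log2 ratio of the miR-222 arms was -13.81 there, which rests on that count. The highest miR-222-3p in day 90 controls was 3196 CPM in library 1, against 2611 to 2687 CPM in the others.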

How the results depend on the processing

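No member passed an adjusted p of 0.05 under any alternative of the fits of single days, effect differences or controls. For miR-222-3p at day 180 the log2 fold change stayed between 0.34 and 0.47 and its adjusted p between 0.0568 and 0.602 over the settings, and between 0.36 and 0.49 with 1 library left out (0.0914 to 0.469). For miR-221-5p at day 180 these were 0.67 to 1.01 (0.171 to 0.659) and 0.46 to 1.31 (0.0554 to 0.562). The settings included the deposited RPM with limma, added after the data were seen. miR-221-3p at day 14 turned positive with the replicate block (0.022) and without the 10 most abundant miRNAs (0.035). With the replicate block miR-221-5p gave -0.078 for the effect at day 180 minus day 14 and 0.010 for controls of day 180 minus day 14, and with no filter -0.0071 for controls of day 90 minus day 14. The cause was not tested.

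Counts of called miRNAs moved more. They were 7 with no filter and 1 with DESeq2 or all 24 libraries in one fit at day 14. At day 90 they were 18 with no filter, 18 with DESeq2, and 0 with the replicate block or all 24 libraries. At day 180 they were 18, 26 and 32 with no filter, DESeq2 and all 24 libraries. DESeq2 called 2 effect differences for day 180 minus day 14 and 2 for day 180 minus day 90. Controls of day 90 minus day 14 gave 13 with no filter and 7 with the replicate block, and of day 180 minus day 14 gave 25 with the block. In these control fits the block joined libraries of different days, which rests on a shared number only. The same holds for the block within day 90 and 180.

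With 1 library left out, counts ran from 0 to 1, 0 to 7 and 0 to 5 at day 14, 90 and 180, from 0 to 18 and 0 to 10 for effect differences of day 180 minus 14 and minus 90, and from 0 to 25, 15 to 49 and 0 to 4 for controls of day 90 minus 14, 180 minus 14 and 180 minus 90. Log2 values of miR-221-3p ran from -0.11 to 0.21 at day 14, -0.45 to -0.12 at day 90, -0.023 to 0.43 at day 180, -0.0076 to 0.44 for the effect at day 180 minus 14 and -0.058 to 0.28 for controls of day 90 minus 14. Those of miR-221-5p ran from 0.10 to 0.35 at day 90, -0.094 to 0.80 for the effect at day 180 minus 14, -0.30 to 0.21 for controls of day 90 minus 14 and -0.45 to 0.063 for day 180 minus 14, and that of miR-222-3p from -0.0016 to 0.10 for controls of day 90 minus 14. The ratio of miR-222 arms ran from 0.71 to 1.43 at day 14 and -0.53 to 0.74 at day 180, that of miR-221 arms from 0.17 to 1.13 (day 14), from 0.35 to 0.65 (day 90) and from 0.33 to 0.81 (day 180), and that of the 3p arms from -0.17 to 0.11 at day 14. The arm ratios reached an exact permutation p of 0.0286 without irradiated library 2 (miR-222, day 14) and without control library 2 (miR-221, day 90). That is the smallest value possible with 1 library left out. These p-values are unadjusted and are the lowest of all such ratio tests. The miR-222 value rests on at most 4 counts of the 5p arm per library. miR-222-5p, with at most 12 counts, is limited by depth: tested with no filter its log2 fold changes were 1.48, 0.31 and 1.11 (edgeR adjusted p = 0.742, 0.922 and 0.599).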

Other observations

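In control library 3 of day 14, miR-221-5p stood at 0.211 of the lowest of the other 3 controls. Of 499 miRNAs tested at that day, 3 were similarly far below the lowest other control in that library (the criterion being a ratio under 0.25), miR-221-5p being the least extreme of them, and in the other control libraries 0 to 6 were. This look was chosen after the values were seen.

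At day 180, miR-543-5p, one of the 5 miRNAs most like miR-222-3p, averaged 9.07 ± 3.84 CPM in the irradiated libraries, against 2.56 ± 0.513 CPM in the controls (n = 4 per group, SD; edgeR adjusted p = 0.105). miR-342-5p of the same 5 averaged 148 ± 101 CPM in irradiated libraries, against 56.2 ± 14 CPM in controls (adjusted p = 0.251), and miR-191-3p 70.7 ± 29.2 CPM in irradiated libraries, against 51.9 ± 3.98 CPM in controls (adjusted p = 0.477). The rest of the 5 went the other way. miR-1668 averaged 5.29 ± 1.04 CPM in irradiated libraries and 5.91 ± 1.05 CPM in controls (edgeR adjusted p = 0.792). For miR-6958-3p the means were 3.24 ± 2.15 CPM in irradiated libraries and 4.15 ± 0.641 CPM in controls (edgeR adjusted p = 0.775).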
